A study of Mus musculus with 32 samples.

Results

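The 9 genes described here are the transcription factors Snai1, Snai2, Twist1, Twist2, Zeb1 and Zeb2 and the proteins Vim, Cdh2 and Fn1, which are widely used as a signature of epithelial-mesenchymal transition. They were taken by name, and their probes were found by matching the RefSeq accession of each array probe to mouse gene symbols, which named 20145 genes in all. The tumours came from 4T1-Luc, a luciferase-marked line of mouse mammary carcinoma, grown orthotopically, in a mammary fat pad (the third), in Balb/C females aged 8 weeks. All animals carried the same tumour line, and once tumours were established they were given 40 mg/kg sunitinib, an inhibitor of VEGF, PDGF and other receptor tyrosine kinases, or the vehicle of PBS and DMSO. At 1300 mm3, 4 sunitinib mice whose tumours were classed as sensitive (judged up to day 8), 4 classed as resistant and 4 vehicle mice each supplied 2 samples, which makes 24 arrays. Tumours were digested with collagenase in the presence of actinomycin D, which blocks transcription. The first sample (EC) is what magnetic beads coated with antibody to the endothelial antigen PECAM-1 took out, and the second (bulk) is the digest left behind. The other 8 arrays hold bulk tissue of smaller tumours, with 2 vehicle and 2 sunitinib mice at day 9 and the same numbers at 600 mm3. RNA was measured on single-colour Agilent arrays, and each value below is the log2 of the background-corrected signal minus the 75th percentile of its array, so that a difference of 1 is a doubling of signal.

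In epithelial-mesenchymal transition, cells joined by E-cadherin (Cdh1) loosen their contacts and take on a motile state. The Snail factors (Snai1, Snai2) and the ZEB factors (Zeb1, Zeb2) are zinc finger repressors that bind E-box sequences in the promoters of Cdh1 and other epithelial genes, while Twist1 and Twist2 are basic helix-loop-helix factors that bind E-boxes as dimers. Vimentin (Vim) is an intermediate filament protein, N-cadherin (Cdh2) a junction protein that replaces E-cadherin in mesenchymal cells, and fibronectin (Fn1) a glycoprotein of the extracellular matrix. None of the 9 genes belongs to tumour cells alone: endothelial cells, pericytes, fibroblasts and macrophages express several of them. In samples of mixed cells, fewer cells of a type and less RNA per cell cannot be told apart.

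Detection differed between groups: 46.1% to 52.8% of probes were well above background in EC of resistant mice, 79.9% to 86.4% in EC of sensitive and 80.3% to 82.2% in EC of vehicle mice, and 55.3% to 83.2% over the 20 bulk arrays. The bulk array of resistant mouse 2 stands apart from the other 3 of its group, with the 83.2%. Resistance and slide cannot be told apart, because the 8 resistant arrays fill 1 slide, and on the other 3 slides sunitinib lies in column 1 and vehicle in column 2, so column and treatment cannot be told apart. The EC label held against its markers: all 11 endothelial markers were higher in EC than in bulk, and Pecam1 had a mean of 2.02 in EC and -0.85 in bulk. Tumour epithelial markers were lower in EC (8 of 8) but remained well above background on every EC array, and 8 of 8 macrophage markers were higher.

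All 9 genes were well above background on all 32 arrays, so each was tested in every comparison. Zeb2 and Cdh2 have 2 probes each, and the brighter one is used, with the other one given beside it; the other 7 genes have 1 probe. Within its own array, Fn1 lay at the 99.6th and Vim at the 99.3rd percentile of gene signals in the median, and Snai1 at the 76.3rd, Zeb2 at the 69.5th, Twist1 at the 62.1st, Zeb1 at the 60.9th, Twist2 at the 50.1st, Cdh2 at the 44.3rd and Snai2 at the 43rd. These ranks describe probe signals and give no order of transcript amounts between genes. The span of group means was narrow for Vim (7.40 to 7.94) and Fn1 (8.16 to 8.78) and wide for Snai2 (-4.84 to -0.75). Ordered by level, neighbouring groups overlapped in their arrays in all 9 steps for 6 of the genes. The exceptions were a step for each of 3 genes: Snai2 between bulk vehicle and 600 mm3 sunitinib, Zeb1 between EC vehicle and EC resistant, and Zeb2 between EC vehicle and 600 mm3 vehicle.

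**Figure D1:**
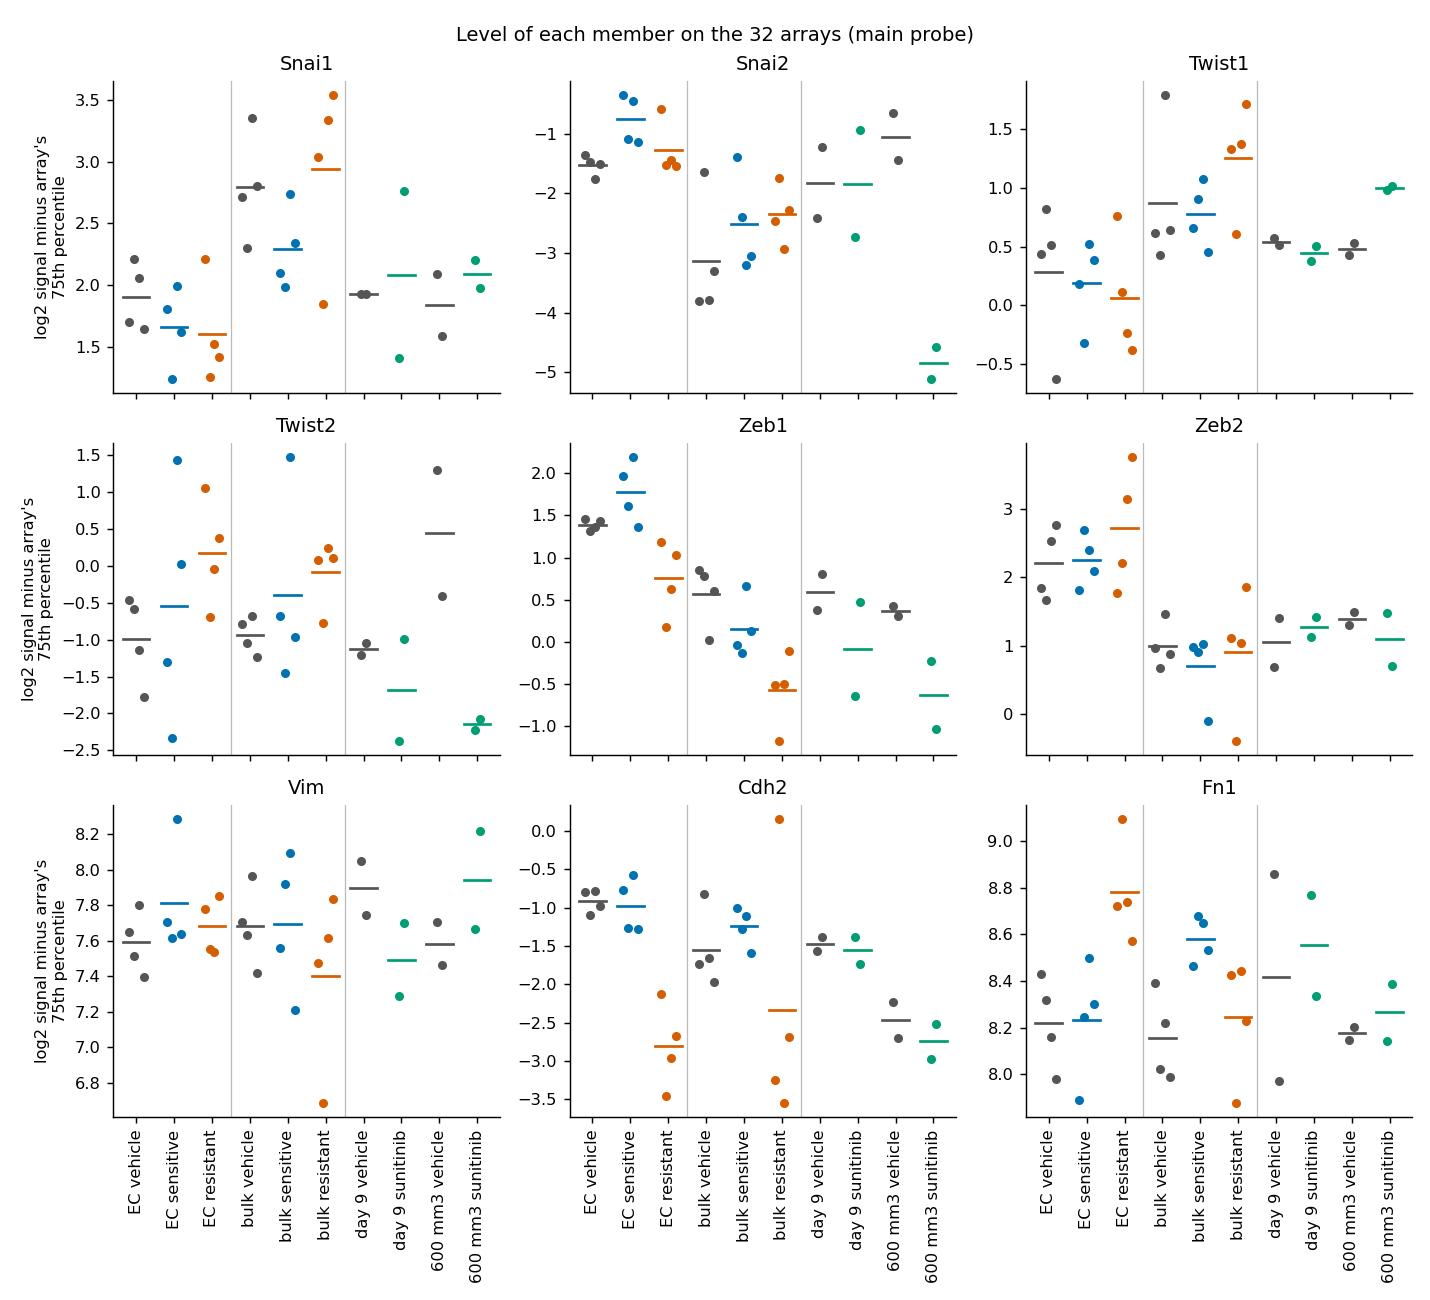
Level of each gene (log2 signal minus the array's 75th percentile, main probe) on the 32 arrays in 10 groups. Points are arrays, bars are group means and grey lines separate EC, bulk at 1300 mm3 and the smaller tumours. Zeb1 and Zeb2 are higher in the EC groups, Cdh2 is low in the EC arrays of resistant mice, and Snai2 is lowest in 600 mm3 sunitinib tumours (-5.10 and -4.58).

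The first comparison set the EC fraction against the bulk of the same tumour in 12 mice. In vehicle and sensitive mice the fractions lie on different slides, so fraction and slide cannot be told apart there. The transition factors did not move as a group. Zeb1, Zeb2 and Snai2 rose in EC and Snai1 and Twist1 fell, while Twist2, Vim, Cdh2 and Fn1 did not pass the test. With limma, 5 of 9 genes were called (adjusted p under 0.05), 3 higher and 2 lower. Of all 18280 genes tested 50.9% were called, 23.1% higher and 27.8% lower, so the share among the 9 is near the background. Their median difference was 0.10, beside -0.04 over all genes.

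Zeb1, a repressor of Cdh1, was higher in EC in 12 of 12 mice. The difference within a mouse was 0.52 at the lowest, 1.28 in the median and 1.99 at the highest, with a mean of 1.26 (SE 0.10, adjusted p = 5.74e-06). Its mean was 1.31 in EC and 0.05 in bulk. Zeb2, the other ZEB factor, was higher in 12 of 12 mice as well, from 0.66 over a median of 1.59 to 2.61, with a mean of 1.53 (SE 0.18, adjusted p = 4.67e-05). The other probe of Zeb2 gave 1.16 (SE 0.28, adjusted p = 0.00728) and was higher in 11 of 12 mice. The exception is resistant mouse 2, in which it differed by -0.88. Both ZEB genes thus stood higher in EC in each of the 3 treatment groups by their main probes: the mean within-mouse difference was 0.82 ± 0.37 in vehicle, 1.62 ± 0.33 in sensitive and 1.33 ± 0.27 in resistant mice for Zeb1, and 1.21 ± 0.46, 1.55 ± 0.59 and 1.82 ± 0.83 for Zeb2 (SD, n = 4 mice each).

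The Snail factors moved in opposite directions. Snai2 (Slug), a factor that endothelial and mural cells also express, was higher in EC in 12 of 12 mice, from 0.17 over a median of 1.65 to 2.77, and its mean difference was 1.48 (SE 0.23, adjusted p = 0.00027). Snai1 (Snail) was lower in EC in 12 of 12 mice, from -2.12 over a median of -0.79 to -0.09, with a mean of -0.95 (SE 0.15, adjusted p = 0.000398). Its mean was 1.72 in EC and 2.67 in bulk. Twist1 was lower in 11 of 12 mice, with vehicle mouse 3 the exception at 0.40. Its lowest difference was -2.09, its median -0.56 and its mean -0.78 (SE 0.20, adjusted p = 0.00572). Twist2 was higher in 6 of 12 mice, with a mean difference of 0.02 (SE 0.18, adjusted p = 0.934).

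Snai1 and Twist1, the pair that fell together in EC, are shown with the 250 bases before the transcription start. The windows are RefSeq's for mouse build GRCm38.p6 and contain none of the transcript. E-boxes of the form CANNTG, which reads the same on both strands, are in capitals.
Snai1, chr2:167537945-167538194, plus strand: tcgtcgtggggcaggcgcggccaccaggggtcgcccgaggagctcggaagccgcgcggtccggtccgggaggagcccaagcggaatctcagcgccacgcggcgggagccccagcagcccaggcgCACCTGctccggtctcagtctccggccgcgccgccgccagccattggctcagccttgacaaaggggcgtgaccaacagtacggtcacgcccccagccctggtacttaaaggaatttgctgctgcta
Twist1, chr12:33957421-33957670, plus strand: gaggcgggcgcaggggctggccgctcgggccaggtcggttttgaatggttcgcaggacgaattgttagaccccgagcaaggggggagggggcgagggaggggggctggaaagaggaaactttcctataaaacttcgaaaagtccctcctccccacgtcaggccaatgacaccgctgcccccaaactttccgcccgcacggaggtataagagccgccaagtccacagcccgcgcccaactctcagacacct
The Snai1 window holds 1 E-box, whose letters CACCTG begin 126 bases before the start. This is the spelling that Snail and ZEB proteins are known to bind, and it overlaps no other match. The Twist1 window holds 0. Of 32851 RefSeq promoter windows of the same length 66.2% hold at least 1 CANNTG, and 17.2% hold CAGGTG or CACCTG, which are the same E-box on opposite strands. Windows were matched for 5 of the 9 genes, and those of Twist2, Vim and Zeb2 (4 windows) hold 0 CANNTG.

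The 3 structural markers did not differ between the fractions beyond their spread. Vim was higher in EC in 6 of 12 mice, from -0.31 to 0.87, with a mean difference of 0.10 (SE 0.10, adjusted p = 0.433). Fn1 was likewise higher in 6 of 12 mice, from -0.57 to 1.21, with a mean of 0.09 (SE 0.10, adjusted p = 0.509). Cdh2 was higher in 10 of 12 mice, but its mean was 0.15 (SE 0.34, adjusted p = 0.753) because resistant mouse 2 lies at -3.61. Without that mouse the mean was 0.50 (SE 0.14, adjusted p = 0.00908), and 6 of 9 genes were called. The other probe of Cdh2 gave 0.18 (SE 0.17, adjusted p = 0.47) over all 12 mice.

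**Figure D2:**
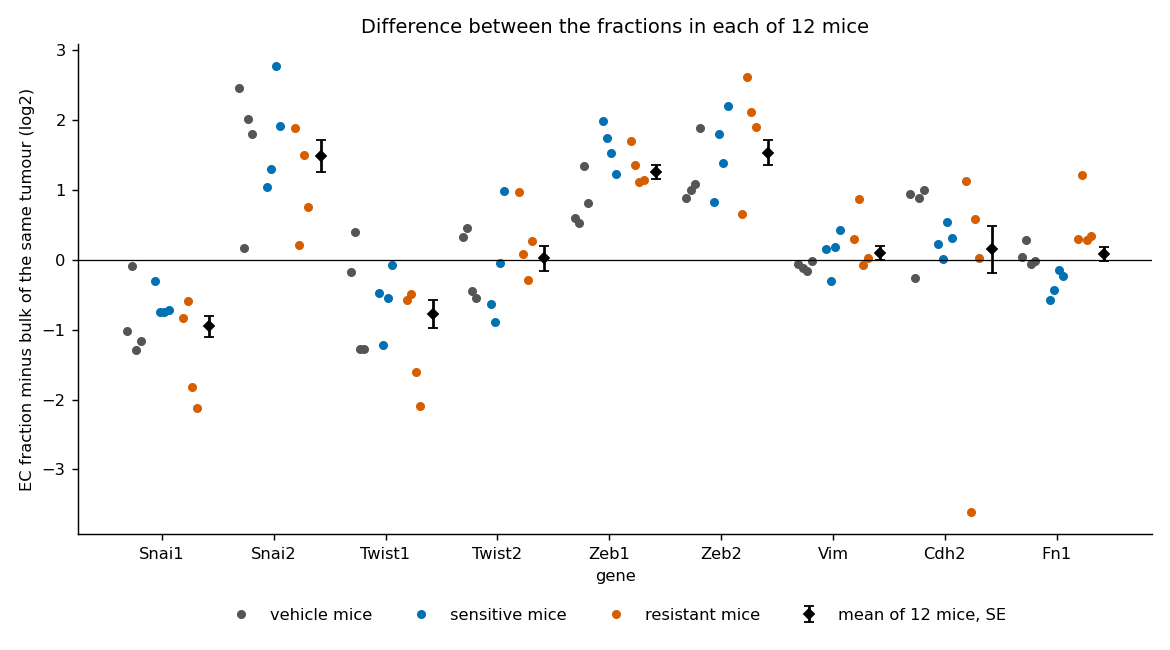
EC minus bulk of the same tumour (log2) for each gene; points are the 12 mice, coloured by treatment, and diamonds are the means with limma's SE. All 12 mice lie above 0 for Snai2, Zeb1 and Zeb2 and below 0 for Snai1, and for Fn1 the 4 resistant mice lie above 0 and the 4 sensitive mice below it.

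Genes around these factors moved as follows, beside 50.9% of all genes called (23.1% higher, 27.8% lower). Of 30 epithelial genes 0 were higher and 26 lower in EC, with a median difference of -1.23. Keratin Krt7 fell by 1.88 (SE 0.17) and claudin Cldn4 by 1.88 (SE 0.23), and Cdh1, the classic target of the factors, fell by 1.10 (SE 0.18, adjusted p = 0.000504). Of 34 mesenchymal effectors 9 were higher and 13 lower (median -0.16), among them Tgfbi, a TGF-beta-induced matrix protein, at 1.17, against the metalloproteinases Mmp3 at -1.30 and Mmp9 at -1.16. Of 25 tested other transition factors and partners 3 were higher and 11 lower: Id2 and Id1, inhibitors of helix-loop-helix factors, at 1.34 and 0.73, and the factor Foxq1 at -1.35. Of 18 genes of TGF-beta and BMP input 5 were higher and 3 lower, with the ligands Bmp2 at 4.42 and Bmp4 at 3.13, against the signal transducer Smad3 at -0.81 and the ligand Tgfb3 at -0.51.

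Markers of cell types moved with the fractions. Their lists are not separate from those above. The tumour epithelial markers are all among the epithelial genes. Most fibroblast markers, and Acta2 of the mural list, are among the mesenchymal effectors. Mural (pericyte and smooth muscle) markers were higher in EC in 7 of 8 cases (median 1.01), macrophage markers in 8 of 8 (median 2.44) and endothelial markers in 11 of 11 (median 5.17). Fibroblast markers were higher in 0 and lower in 3 of 8, T and NK cell markers were lower in 6 of 7, neutrophil markers in 3 of 7 and tumour epithelial markers in 8 of 8. Of 4 B cell markers 2 were higher, of 6 adipocyte markers 1 was higher, and of 5 skeletal muscle markers 1 was lower. The mean level of the mural list was 0.55 to 0.86 in EC and -0.91 to 0.22 in bulk of vehicle mice, and that of the macrophage list 3.62 to 5.31 and 2.54 to 3.63. Their part in the differences of Zeb1, Zeb2 and Snai2 was not tested.

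Resistant mice are the only ones whose fractions lie on the same slide. In them 5 of 9 genes were called between EC and bulk, 3 higher and 2 lower, against 26.9% of all genes (13.9% higher, 13% lower). Zeb2 was higher by 1.82 (SE 0.31, adjusted p = 0.0022), Zeb1 by 1.33 (SE 0.18, adjusted p = 0.00107) and Fn1 by 0.54 (SE 0.17, adjusted p = 0.0391). Snai1 was lower by 1.34 (difference -1.34, SE 0.27, adjusted p = 0.00478) and Twist1 by 1.19 (difference -1.19, SE 0.34, adjusted p = 0.0239). Snai2 had a difference of 1.08 (SE 0.39, adjusted p = 0.0626). It was called with normexp (1.00, adjusted p = 0.00853), after quantile normalization (1.59, adjusted p = 0.0356) and on the deposited value table (1.28, adjusted p = 0.0207). Testing only genes well above background on every array (adjusted p = 0.0287) or leaving out resistant mouse 2 (1.38, adjusted p = 0.0259) also called it. The arrays did not overlap for 3 genes (Zeb1, Snai2 and Fn1), against 19.6% of all genes. Fitted on these 4 mice alone, with the same differences, 0 of 9 were called with limma, where 114 of 18280 genes were; the adjusted p was 0.0725 for Zeb1, 0.0907 for Zeb2 and 0.127 for Snai1. Without resistant mouse 3 or 4, 3 genes were called in place of 5: the calls of Twist1 (-1.05 and -0.89, adjusted p = 0.101 and 0.126) and Fn1 (0.62 and 0.60, adjusted p = 0.0658 and 0.0761) were lost. Fn1 kept its call in only 2 of 12 fits with 1 mouse of any group left out, and without resistant mouse 2 it was at 0.31 (adjusted p = 0.092). The call of Fn1 was also lost with normexp (0.31, adjusted p = 0.143), after quantile normalization (0.08, adjusted p = 0.689) and on the deposited value table (-0.02). The other probe of Zeb2 gave 0.72 (SE 0.48, adjusted p = 0.366).

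Next, sunitinib-sensitive mice were compared with vehicle at 1300 mm3, within each slide. None of the 9 genes was called in either fraction with limma, as was the case for all genes (0% in EC and 0% in bulk). At an unadjusted p under 0.05 stood 1 of the 9 in EC and 1 in bulk, beside 5.29% and 5.42% of all genes. In EC it was Snai2, which measured -1.35, -1.47, -1.76 and -1.51 in vehicle and -0.35, -1.09, -0.44 and -1.13 in sensitive mice. All 4 sensitive arrays lie above all 4 vehicle arrays, as was the case for 1 of the 9 genes and 4.33% of all genes, and the difference was 0.77 (SE 0.25, adjusted p = 0.765). In bulk it was Fn1, with 8.39, 8.02, 8.22 and 7.99 in vehicle and 8.46, 8.68, 8.65 and 8.53 in sensitive mice. These groups did not overlap either (1 of 9, beside 7.2% of all genes), and Fn1 differed by 0.43 (SE 0.17, adjusted p = 0.87). The other members differed from vehicle by -0.24 to 0.45 in EC and by -0.50 to 0.62 in bulk. In this comparison 0 genes of the 4 lists around the factors were called in either fraction.

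Of the 9 genes, Cdh2 differed most in EC of resistant mice. N-cadherin measured -0.79, -1.09, -0.78 and -0.97 on the 4 EC arrays of vehicle mice, -0.77, -1.26, -0.58 and -1.28 on those of sensitive mice and -2.12, -3.46, -2.96 and -2.67 on those of resistant mice. Every resistant array lies below every other EC array. Cdh2 was lower by 1.90 than in vehicle (difference -1.90, SE 0.26, adjusted p = 8.7e-05) and by 1.83 than in sensitive mice (difference -1.83, SE 0.26, adjusted p = 0.000115). Its other probe gave -1.77 (SE 0.21) and -1.97 (SE 0.21). The size depends on the background correction: with normexp the differences were -0.99 and -0.86, and on the deposited table -1.02 and -0.85, all 4 called. Before scaling, the main probe gave 22.01 to 89.96 on the resistant EC arrays and 350.8 to 427.4 on those of vehicle mice. The lowest signal well above background was 15.81 to 26.47 on the resistant EC arrays, so these values lie near the floor. Resistance and slide cannot be told apart here.

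Zeb1 was also lower in EC of resistant mice. The values were 1.46, 1.31, 1.36 and 1.43 in vehicle, 1.96, 1.61, 2.19 and 1.36 in sensitive, and 1.19, 0.18, 0.63 and 1.04 in resistant mice, with no overlap between resistant and either other group. The difference was -0.63 from vehicle (SE 0.23, adjusted p = 0.0405) and -1.02 from sensitive mice (SE 0.23, adjusted p = 0.00359). The difference from vehicle was -0.77 to -0.44 when any 1 array was left out. Its call was lost without sensitive mouse 2 or 3, resistant mouse 2 or 3, or any 1 of the vehicle mice (adjusted p up to 0.113, without resistant mouse 2).

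Fn1 was higher, with 8.43, 8.32, 8.16 and 7.98 in vehicle, 7.89, 8.25, 8.50 and 8.30 in sensitive and 8.72, 9.09, 8.74 and 8.57 in resistant mice. It differed by 0.56 from vehicle (SE 0.17, adjusted p = 0.018) and by 0.55 from sensitive mice (SE 0.17, adjusted p = 0.0203). The call was lost under every other scaling tried, and the direction turned on the deposited table: with normexp Fn1 differed by 0.14 and 0.06, after quantile normalization by 0.05 and 0.06, with the 75th percentile taken over probes detected on all arrays by 0.20 and 0.19, and on the deposited table by -0.25 and -0.30, none of them called. The call was also lost against both groups without resistant mouse 2 (0.46 and 0.44, adjusted p = 0.0521 and 0.058), against vehicle without vehicle mouse 5 (0.48, adjusted p = 0.055) and against sensitive mice without sensitive mouse 2 (0.43, adjusted p = 0.0678). The percentile over detected probes moved the median of all genes in these comparisons by -0.36 and normexp by 0.19 and 0.17.

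In each of these EC comparisons 3 of 9 genes were called, 1 higher and 2 lower, and the same 3 did not overlap. Of all genes 49.4% were called against vehicle (23.1% higher, 26.3% lower, 42% without overlap) and 49.5% against sensitive mice (21.9% higher, 27.6% lower, 44.4% without overlap). The 2 comparisons share the resistant arrays. The other 6 genes were not called in either. Other settings called some of them. Vim, at -0.13 against sensitive mice (SE 0.17, adjusted p = 0.545), was called lower there after quantile normalization (-0.65, adjusted p = 0.0175), with the percentile over detected probes (-0.49, adjusted p = 0.0363) and on the deposited table (-0.77, adjusted p = 0.00596). Against vehicle, Snai2 at 0.25 became 0.76 (adjusted p = 0.0384) after quantile normalization, and Snai1 at -0.30 became -0.66 (adjusted p = 0.0468) with the percentile over detected probes. Snai2 differed by -0.52 from sensitive mice (SE 0.25, adjusted p = 0.107), by -0.87 (adjusted p = 0.0246) with the percentile over detected probes, and by -0.81 (adjusted p = 0.0193) with the mouse number as a block. Deviations of same-numbered EC arrays of these 2 groups correlated at 0.14 to 0.27 in 3 pairs. The pairing is uncertain: the resistant mouse titled 4 has another number in its file names, and the block also spans vehicle arrays, whose deviations correlated with the sensitive ones at -0.31 to 0.02. Under that block Fn1 differed from sensitive mice by 0.54 (adjusted p = 0.0793). Zeb2 differed from vehicle by 0.52 (SE 0.41, adjusted p = 0.31) and by -0.02 with its other probe (SE 0.46). The block called it higher than in vehicle, at 0.90 (adjusted p = 0.0442). Deviations of same-numbered resistant and vehicle EC arrays correlated at -0.18 to 0.22. Without EC resistant mouse 1 Snai2 differed from sensitive mice by -0.75 (adjusted p = 0.012). Twist2 varied widely within groups, with -1.30, -2.33, 1.44 and 0.03 in sensitive mice, and its level in resistant mice differed from vehicle by 1.17 (SE 0.68, adjusted p = 0.173).

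**Figure D3:**
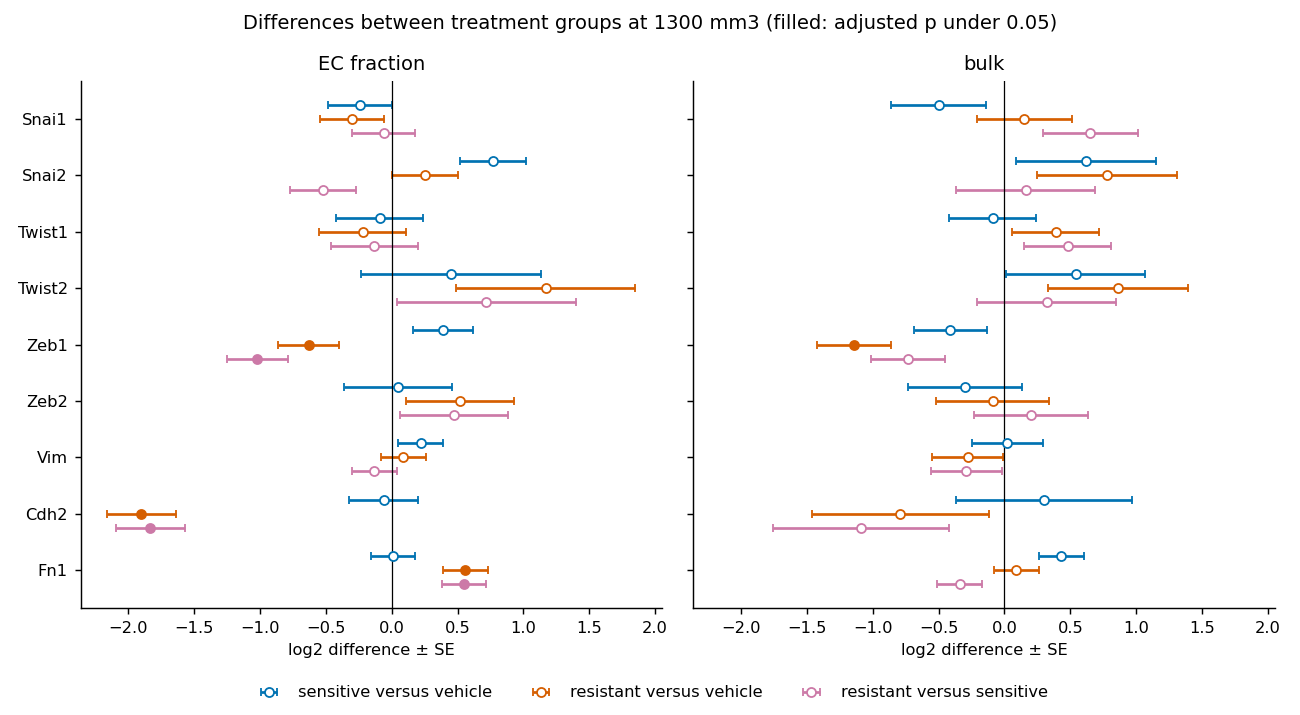
Log2 differences between treatment groups at 1300 mm3 with limma's SE, in the EC fraction (left) and in bulk (right); filled points have an adjusted p under 0.05. In EC, Cdh2 (-1.90 and -1.83) and Zeb1 are lower in resistant mice and Fn1 is higher, a direction that turns on the deposited table (-0.25 and -0.30), and no point of sensitive against vehicle is filled.

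Genes around the members in EC of resistant mice are given beside the share of all genes called. This share was 49.4% against vehicle (23.1% higher, 26.3% lower) and 49.5% against sensitive mice (21.9% higher, 27.6% lower). Against vehicle, 2 of 30 epithelial genes were higher and 1 lower (the junction gene Tjp3 at 0.63, the factor Ovol2 at 0.45, the polarity gene Crb3 at -1.85), and Cdh1 differed by -0.03. Of 34 mesenchymal effectors 2 were higher and 1 lower (Mmp3 at 1.32, the receptor Axl at 0.75, biglycan Bgn at -1.69). Of 25 other factors and partners 6 were higher and 2 lower, led by Id1 at 1.53 and the demethylase Kdm1a at 0.77, against Snai3 at -1.39 and Runx2 at -0.57. Of 18 TGF-beta genes the receptor Tgfbr1 was higher at 0.48 and the inhibitor Ski lower at -0.97. Against sensitive mice the counts higher and lower were 2 and 1, 3 and 4, 4 and 2, and 1 and 2. There Acta2, smooth muscle actin, stood at -1.11, Prrx1 at -1.33 and Bmp4 at -0.57. Beside Cdh2 and Zeb1, mural markers were lower in 5 of 8 cases against vehicle and 7 of 8 against sensitive mice, adipocyte markers in 4 and 5 of 6, and skeletal muscle markers in 3 and 3 of 5. Endothelial markers were lower in 1 and 10 of 11, and B cell markers in 2 and 2 of 4. Macrophage markers had medians of 1.11 and 0.98, and 3 and 1 of 8 were called higher, beside 23.1% and 21.9% of all genes. Fn1, too, was called higher there, under the main scaling alone. The macrophage list had a mean level of 4.28 to 6.41 on the resistant EC arrays, 3.62 to 5.31 on those of vehicle and 4.47 to 5.25 on those of sensitive mice. The mural list had a mean level of -0.82 to 0.55 on the resistant EC arrays, 0.55 to 0.86 on those of vehicle and 0.77 to 1.71 on those of sensitive mice. The part of these cells in the result was not tested.

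The bulk fraction of resistant mice gave 1 call of 9 against vehicle, with 7.81% of all genes called and 6.02% called lower. Zeb1 was lower, with 0.85, 0.79, 0.02 and 0.61 in vehicle and -0.51, -1.17, -0.50 and -0.10 in resistant mice, which do not overlap (1 of 9, beside 12.6% of all genes). The difference was -1.14 (SE 0.28, adjusted p = 0.0296). It was -0.94 (adjusted p = 0.0143) without resistant mouse 2. The call was lost after quantile normalization (-1.64, adjusted p = 0.0997), on the deposited table (-1.41, adjusted p = 0.101) and with the mouse number as a block (-1.16, adjusted p = 0.183). It was also lost without resistant mouse 1 or 3 or without vehicle mouse 2, 3 or 5 (-1.16 to -1.04, adjusted p up to 0.0952). Against sensitive mice 0 of 9 genes were called with limma and 1, Zeb1, had an unadjusted p under 0.05, beside 11.5% and 27.2% of all genes. Fn1 did not overlap there (1 of 9, beside 16.7%), with a difference of -0.34 (SE 0.17, adjusted p = 0.232).

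Cdh2 in resistant bulk depended on mouse 2 and on the probe. Its main probe measured -1.74, -0.83, -1.66 and -1.97 in vehicle, -1.0, -1.27, -1.11 and -1.59 in sensitive, and -3.25, 0.15, -3.54 and -2.69 in resistant mice. The value of 0.15 belongs to mouse 2, whose array stands apart. The differences of -0.79 (SE 0.67, adjusted p = 0.538) from vehicle and -1.09 (SE 0.67, adjusted p = 0.321) from sensitive mice became -1.62 (SE 0.29, adjusted p = 0.0014) and -1.92 (SE 0.29, adjusted p = 0.000349) without it. The other probe measured -3.50, -2.14, -4.02 and -3.38 in resistant mice, all below every vehicle and sensitive bulk array. It differed by -1.70 (SE 0.35) from each of them, with adjusted p = 0.00958 and 0.00752 over all probes. Without mouse 2, Snai1 was also called against sensitive mice, at 1.02 (SE 0.26, adjusted p = 0.0103) where the difference over all 4 mice was 0.65 (adjusted p = 0.276). Of 25 other factors and partners 1 was called in each comparison of resistant bulk, beside 7.81% and 11.5% of all genes. Id1 was higher by 1.63 than in vehicle and by 1.18 than in sensitive mice. Of 30 epithelial genes 2 were higher than in sensitive mice, the protease inhibitor Spint2 at 1.04 and Ovol2 at 0.66, and 0 of the mesenchymal effectors and TGF-beta genes were called in bulk.

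**Figure D4:**
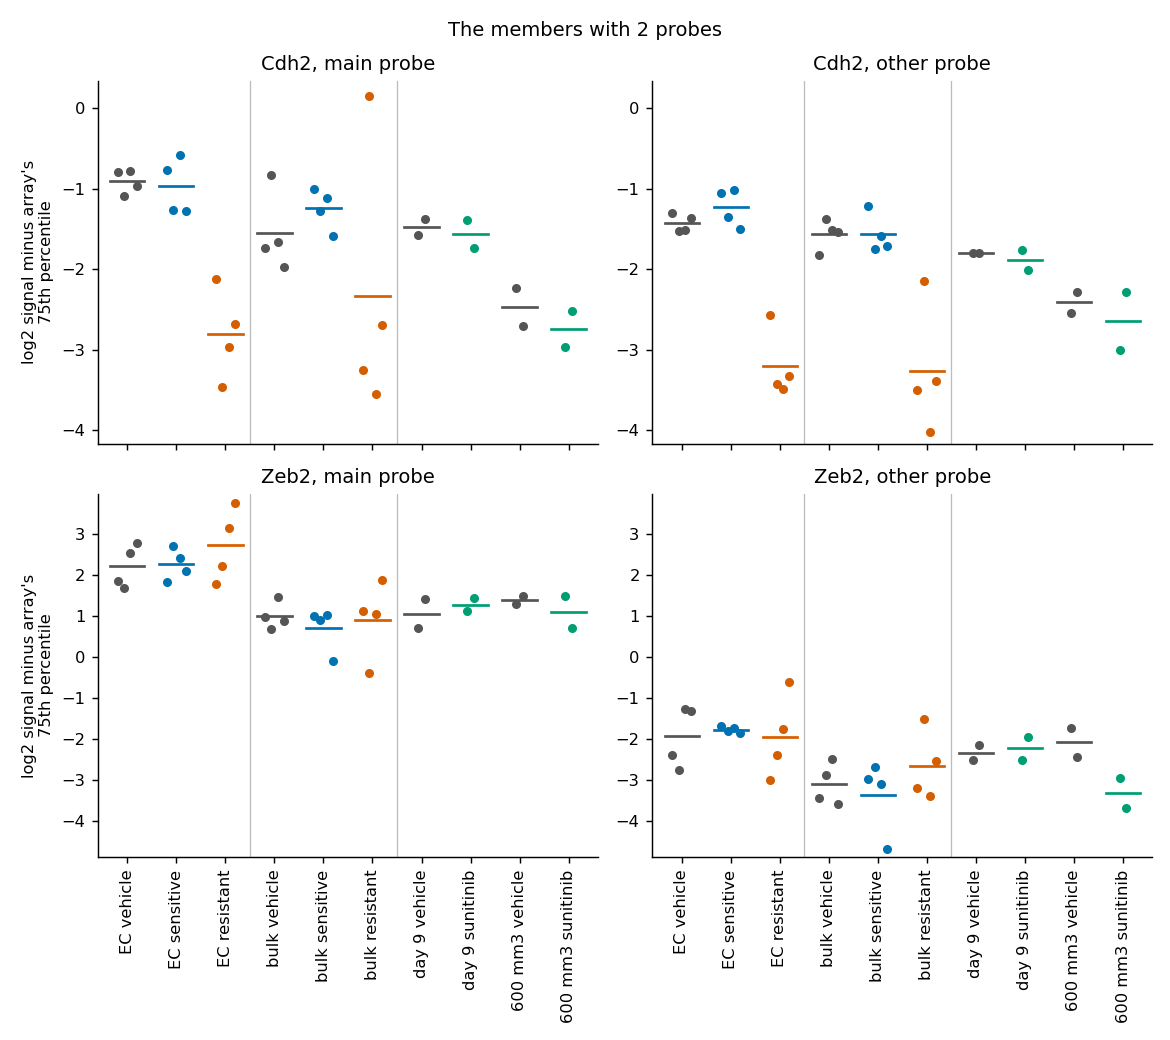
Level (log2 signal minus the array's 75th percentile) of Cdh2 and Zeb2 by the main probe (left) and the other probe (right) on the 32 arrays; bars are group means. The other Cdh2 probe puts all 4 resistant bulk arrays (-4.02 to -2.14) below the vehicle and sensitive ones, while the main probe has resistant mouse 2 at 0.15.

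Whether a sunitinib effect differed between EC and bulk was tested on the within-mouse differences. For the sensitive effect 0 of 9 genes (0% of all) were called with limma and 1 had an unadjusted p under 0.05, beside 4.31% of all genes. That gene was Zeb1, at 0.80 (SE 0.26, adjusted p = 1). For the resistant effect 0 of 9 were called (0.301% of all), and 0 had an unadjusted p under 0.05, beside 17.9% of all genes. A lower Zeb1 or Cdh2 in resistant mice was therefore not shown to differ between the fractions: the difference of effects was 0.51 (SE 0.26, adjusted p = 0.324) for Zeb1 and -1.11 (SE 0.83, adjusted p = 0.509) for Cdh2, and -0.08 (SE 0.42) by the other Cdh2 probe. The gap between the fractions in resistant against sensitive mice was looked at after its values had been seen. Fn1 was lower in EC than in bulk in 4 of 4 sensitive mice (-0.57 to -0.15) and higher in 4 of 4 resistant mice (0.29 to 1.21). These gaps differed by 0.88 (SE 0.24, adjusted p = 0.0795), with 1.37% of all genes called and 0 of the 9. The fractions of sensitive mice lie on different slides and those of resistant mice on 1, so this contrast and slide cannot be told apart. The mean gap of Fn1 in resistant mice also depended on the scaling. It was 0.39 with the percentile over detected probes, 0.31 with normexp, 0.08 after quantile normalization and -0.02 on the deposited table.

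In the smaller tumours, sunitinib against vehicle over both stages called 0 of 9 genes with limma, as for all genes (0%). At an unadjusted p under 0.05 were 3 of the 9, all lower, beside 9.88% of all genes. They were Snai2 at -1.91 (SE 0.47, adjusted p = 0.225), Twist2 at -1.57 (SE 0.44, adjusted p = 0.266) and Zeb1 at -0.84 (SE 0.30, adjusted p = 0.412). For Snai2 the values differ by stage. At day 9 it measured -2.41 and -1.23 in vehicle and -2.74 and -0.94 in sunitinib tumours, which overlap. At 600 mm3 it measured -0.65 and -1.44 in vehicle and -5.10 and -4.58 in sunitinib tumours. Twist2 measured 1.30 and -0.41 in vehicle and -2.22 and -2.07 in sunitinib tumours at 600 mm3.

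These stages were then tested apart, after the values had been seen. At day 9, 0 of 9 and 0% of all genes were called, and Snai2 differed by -0.02 (SE 0.66). At 600 mm3 Snai2 differed by -3.80 (SE 0.66, adjusted p = 0.0478), the 1 call of 9, beside 1.62% of all genes. Its signal before scaling was 28.91 and 45.75 on the sunitinib arrays and 390.2 and 966 on the vehicle arrays. The lowest signal well above background on the sunitinib arrays was 13.71 and 15.04, so the size of the difference rests on signals near the floor. With normexp it was -2.33. Twist2 differed by -2.59 (SE 0.62, adjusted p = 0.108). The difference between the stages called 0 of 9 genes (0.155% of all): it was -3.78 for Snai2 (SE 0.93, adjusted p = 0.173) and -2.03 for Twist2 (SE 0.88, adjusted p = 0.333). Of 5 other settings, the mean of a gene's probes leaves the Snai2 values as they were, since Snai2 has 1 probe. Under the other scalings the 600 mm3 effect on Snai2 was -3.75 to -2.33 with an adjusted p of 0.0436 to 0.0583. Only the percentile over detected probes (-3.75, adjusted p = 0.0583) did not call it. Beside it, the mean level of endothelial markers was -0.33 and 0.25 in vehicle and -2.15 and -2.07 in sunitinib tumours at 600 mm3. That of fibroblast markers was 3.57 and 2.55 in vehicle and 1.79 and 2.18 in sunitinib tumours, that of mural markers -0.63 and -0.58 against -1.68 and -1.79, that of macrophage markers 4.26 and 4.17 against 3.1 and 2.13, and that of skeletal muscle markers -3.97 and -4.35 against 1.17 and 0.20. All 8 fibroblast and all 5 muscle markers were well above background on the sunitinib arrays. Their part in the low Snai2 was not tested.

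**Figure D5:**
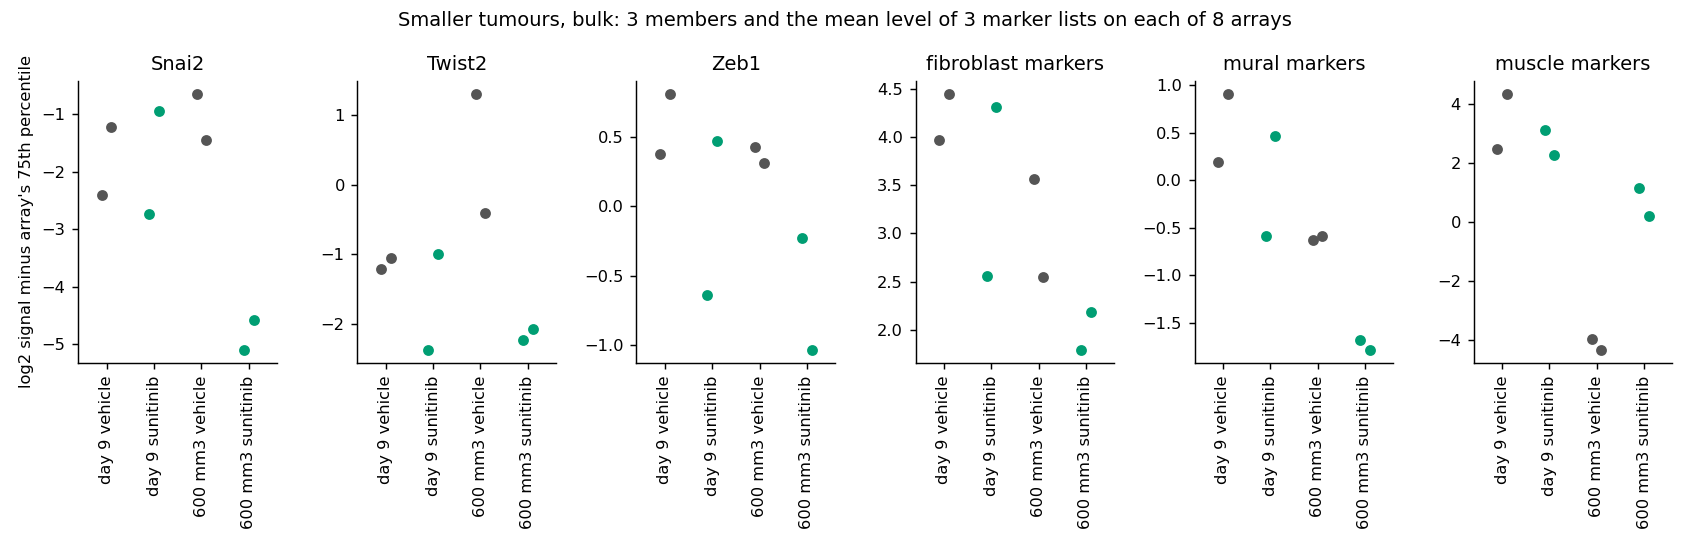
Levels of Snai2, Twist2 and Zeb1 and the mean level of the fibroblast, mural and skeletal muscle markers on the 8 arrays of smaller tumours (log2 signal minus the array's 75th percentile; grey vehicle, green sunitinib). In 600 mm3 sunitinib tumours Snai2 is at -5.10 and -4.58 while the muscle list is at 1.17 and 0.20, above its level in 600 mm3 vehicle tumours.

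Between the stages, 1 of 9 genes was called, lower at 600 mm3 than at day 9, beside 4.17% of all genes (2.69% lower). It was Cdh2, with -1.57 and -1.38 in vehicle and -1.38 and -1.73 in sunitinib tumours at day 9, and -2.23, -2.70, -2.97 and -2.52 at 600 mm3. The stages do not overlap (1 of 9, beside 12.4% of all genes), and the difference was -1.09 (SE 0.19, adjusted p = 0.033). The other probe gave -0.69 (SE 0.21, adjusted p = 0.138), and without any 1 of the 8 arrays the adjusted p rose to between 0.0538 and 0.125. Of 34 mesenchymal effectors 7 were lower and 0 higher, led by the matrix protein Tnc at -2.89 and the crosslinking enzyme Lox at -2.52, and of the other factors Foxq1 was higher at 2.09 and Prrx1 lower at -1.55. All 5 skeletal muscle markers (median -4.68) and 3 of 8 mural markers were lower too, and their part in the difference of Cdh2 was not tested.

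Across the 10 group means the members followed different patterns, which are given as a description, since groups share mice and slides. Among the 9, Snai1 and Twist1 were most alike (r = 0.87 over 10 group means), Zeb1 and Zeb2 had r = 0.70 and Snai2 and Zeb1 r = 0.68, while Twist1 ran opposite to Zeb2 (r = -0.83) and to Zeb1 (r = -0.77). Snai1 and Snai2 had r = -0.50. Among 16703 genes well above background on at least 16 arrays, the 3 most like each member were Cnot3, Sema4g and 2700081O15Rik for Snai1 (r from 0.967 to 0.955) and Rftn2, Rps4l and Cibar1 for Snai2 (0.965 to 0.934). They were Kif7, Phf2 and Ppp2r3a for Twist1 (0.983 to 0.956) and Crabp1, Rtn1 and Mab21l3 for Twist2 (0.912 to 0.896). For Zeb1 they were Coro2b, Higd1b and Prrg3 (0.985 to 0.964) and for Zeb2 Abcg1, Slc7a8 and Ythdc2 (0.981 to 0.978). For Cdh2 they were Tmtc1, Tmem59l and Clec3b (0.966 to 0.948), for Fn1 Map7d1, Clic1 and Cd63 (0.981 to 0.970), and for Vim Nanog, Gstm2 and Tatdn3 (0.842 to 0.833). The group means of Vim span only 0.54 and those of Fn1 0.63, so their likeness rests on small differences.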

How the data were processed

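The deposited scanner output, one file per array, gives intensity per spot with background subtracted by Agilent Feature Extraction, version 10.7.3.1 per the file headers and 9.1 per the submitters' processing notes. A value table covering the series, deposited by the authors, gives linear intensity whose normalization and centring are not stated. Its columns have medians of 120 to 125.6.

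Outlier-flagged spots were left out, spots of a probe were averaged, and 26582 of 55681 probes were named for 20145 genes. Each gene is its brightest probe over 32 arrays, scaled to the array's 75th percentile and tested where well above background on at least 4 arrays of a fit (2 for smaller tumours). No probe was saturated. limma 3.58.1 (R 4.3.3, with the data.table package, version 1.17.8) fitted EC, bulk, smaller tumours and within-mouse differences (residual degrees of freedom 9, 9, 4 and 9), with Benjamini-Hochberg adjustment over all genes (over all probes for other probes) at 0.05. The fits were tested on simulated data. Normexp (offset 50) used the median signal, since the scanner files used here give no mean signal. The labels number mice, so replicates are separate animals, and the number of arrays limits precision.

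EC and bulk of a tumour share a mouse number in the labels, and the deviations of the pair from their group means correlated at -0.04 to 0.49, above 0.1 in 11 of 12 mice. Across treatments, same-numbered arrays of EC sensitive and EC resistant mice correlated above 0.1 in every pair (0.14 to 0.27). Those of day 9 sunitinib and day 9 vehicle mice did so too, at 0.15, and no other pair of groups did. With 2 arrays in a group the 2 deviations mirror each other. The 2 pairs at day 9 therefore give the same value by construction and count as 1. The resistant mouse titled 4 has another number in its file names.

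The members and lists were chosen with earlier results of these data known. Named are all members, Cdh1 and Pecam1, of each list up to 2 genes with the largest called rise and fall per comparison, and the 3 genes most like each member; some genes this rule names are not reported here. Figures and motif counts used Python 3.11.15 and matplotlib 3.10.9.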

Additional observations from a re-analysis of the deposited data

Results flagged for a closer look

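In each group of 4 arrays the probes of the 9 genes were scanned for an array far from the other 3, and 5 of 66 probe and group combinations passed Dixon's limit at the 95% level, where chance passes about 1 in 20. Snai2 in EC of resistant mice measured -0.58 in mouse 1 and -1.54 to -1.44 in the other 3. Twist1 in bulk of vehicle mice measured 1.79 in mouse 4 against 0.43 to 0.64. Twist2 in bulk of resistant mice measured -0.77 in mouse 2, the array that stands apart, against 0.09 to 0.24. Zeb2 in bulk of sensitive mice measured -0.10 in mouse 5 against 0.90 to 1.02. Vim in EC of sensitive mice measured 8.28 in mouse 4 against 7.62 to 7.71. The Cdh2 value of resistant bulk mouse 2 (0.15) stayed below that limit.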

How the results depend on the processing

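Every comparison was refitted under 8 other settings (7 for 600 mm3 against day 9): normexp, quantile normalization, the 75th percentile over probes detected on all arrays, the deposited table, the mean of a gene's probes, no filter, a filter on every array, and the mouse number in or out as a replicate block. The number of members called stayed within 1.5 times in 94 fits and moved further in 4, counting 3 fits on the arrays of 1 slide alone. For bulk resistant against vehicle it was 0 in place of 1 with quantile normalization, the deposited table and the replicate block (Zeb1 -1.64, -1.41 and -1.16). For EC against bulk in resistant mice it was 0 in place of 5 on 1 slide alone, an alternative chosen after the data had been seen. Counts of 0 in both fits were taken as unchanged, and an equal count can hold other genes. For EC resistant against sensitive mice, quantile normalization and the deposited table each lost the call of Fn1 and gained that of Vim. Fn1 reversed on the deposited table alone, to -0.25 and -0.30 for EC resistant against vehicle and sensitive mice and to -0.02 between the fractions of resistant mice. The cause was not tested. Leaving out each replicate (mouse or array) in turn, the members called ranged from 5 to 6 for EC against bulk, 3 to 6 in resistant mice, 1 to 3 and 2 to 4 for EC resistant against vehicle and sensitive mice, 0 to 2 for both bulk resistant comparisons, 0 to 0 in place of 1 for 600 mm3 against day 9, and stayed at 0 in the other 5 comparisons. The mouse number as a replicate block moved the calls of all genes from 1325 to 495 and from 1957 to 816 in the bulk resistant comparisons and from 0 to 2 in bulk sensitive against vehicle. Without the replicate block EC against bulk still called 5 members. Of 90 values not called, 20 changed sign under some setting and 29 when a replicate was left out. Among called genes of EC resistant against vehicle the share higher was 46.7%, and 77.2% with normexp, 15.8% with the percentile over detected probes and 79.6% of 5124 calls (8858 before) with the filter on every array; against sensitive mice it was 44.2%, 72.8%, 11.1% and 75.9%. The slide as a block was not run, since each group lies on 1 slide. Low detection on the resistant EC arrays limits what dim probes such as those of Snai2 and Cdh2 can show there.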
